A study of Mus musculus with 6 samples.

Results

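The 10 genes described here encode the 5 subunits of the transcription factor NF-kB (Nfkb1, Nfkb2, Rel, Rela and Relb) and 5 proteins of the IkB and feedback group (Nfkbia, Nfkbib, Nfkbiz, Tnfaip3 and Bcl3). They were chosen by name from 23358 genes, with earlier results of these data known. All 10 were abundant enough to be among the 16089 genes tested, with at least 372 counts in every library. They were followed in RNA-seq of mouse calvaria (skull vault bone) at 2 to 3 days of age, in 3 libraries from an Ezh2 conditional knockout (cKO, labelled Ezh2_cKO-Osx) and 3 from wild type (WT, labelled Ezh2_WT_Osx). Ezh2 is the histone methyltransferase of Polycomb repressive complex PRC2. The name Osx, formerly used for the osteoblast transcription factor gene Sp7, stands in the labels of both groups, which do not state what allele or driver the WT animals had. All bones were digested for 20 minutes at 37 degrees C with collagenase type II (2 mg/ml) and trypsin (0.005%) before freezing. Libraries are named by their group and the number in their label: WT 14, WT 27 and WT 29, and cKO 8, cKO 10 and cKO 37.

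NF-kB is a family of dimeric transcription factors that respond to cytokines, microbial products and tissue stress. In resting cells IkB proteins hold the dimers in the cytoplasm. The IkB kinase complex marks IkB for destruction, the dimers enter the nucleus, and among the first genes they switch on are those of their own inhibitors, which closes a feedback loop. In bone the pathway is best known downstream of RANK, where it is needed for osteoclasts to form, and in osteoblast lineage cells it is known to respond to inflammatory cytokines.

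Because feedback genes are known for NF-kB elements near their start sites, the promoters of members with such an element are given first. RefSeq (GRCm38.p6) windows of 300 bases, from 250 before to 50 after an annotated start site, were at hand for 7 of the 10 members. They were searched on both strands for the kB consensus, a degenerate 10-base element to which NF-kB dimers bind. In 5 of these 7 members at least 1 window held a match, against 5.14% of the 27025 genes in the table and 4.51% of all 32851 windows. Capitals mark the matches, and matches that overlap run together. The windows are chr12:55492598-55492897 (minus strand) for Nfkbia, chr19:46304487-46304786 (plus strand) for Nfkb2, chr10:19015361-19015660 (minus strand) for Tnfaip3, chr11:23770920-23771219 (minus strand) for Rel and chr7:19822706-19823005 (minus strand) for Bcl3.
Nfkbia: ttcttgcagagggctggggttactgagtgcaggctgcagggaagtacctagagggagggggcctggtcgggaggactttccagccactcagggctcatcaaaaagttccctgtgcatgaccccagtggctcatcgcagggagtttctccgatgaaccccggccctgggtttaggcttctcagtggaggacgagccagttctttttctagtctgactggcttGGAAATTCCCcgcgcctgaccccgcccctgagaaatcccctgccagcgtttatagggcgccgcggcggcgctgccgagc
Nfkb2: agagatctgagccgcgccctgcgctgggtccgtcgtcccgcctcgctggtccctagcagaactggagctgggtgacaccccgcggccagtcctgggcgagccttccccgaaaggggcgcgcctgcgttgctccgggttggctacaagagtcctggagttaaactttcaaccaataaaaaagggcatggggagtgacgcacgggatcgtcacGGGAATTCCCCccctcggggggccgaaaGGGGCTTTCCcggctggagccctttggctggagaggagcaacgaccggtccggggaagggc
Tnfaip3: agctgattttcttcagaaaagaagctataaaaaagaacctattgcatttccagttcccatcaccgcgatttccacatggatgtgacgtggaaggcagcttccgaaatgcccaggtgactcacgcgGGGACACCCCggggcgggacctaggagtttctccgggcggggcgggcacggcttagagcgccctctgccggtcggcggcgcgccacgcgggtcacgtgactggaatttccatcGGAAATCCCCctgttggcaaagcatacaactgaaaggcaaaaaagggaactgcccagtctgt
Rel: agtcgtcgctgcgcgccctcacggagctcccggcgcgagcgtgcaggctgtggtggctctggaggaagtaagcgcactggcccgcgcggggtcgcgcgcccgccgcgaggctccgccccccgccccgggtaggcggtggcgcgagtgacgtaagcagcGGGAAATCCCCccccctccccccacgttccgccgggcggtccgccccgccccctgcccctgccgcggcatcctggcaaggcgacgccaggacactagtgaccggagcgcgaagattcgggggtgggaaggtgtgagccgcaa
Bcl3: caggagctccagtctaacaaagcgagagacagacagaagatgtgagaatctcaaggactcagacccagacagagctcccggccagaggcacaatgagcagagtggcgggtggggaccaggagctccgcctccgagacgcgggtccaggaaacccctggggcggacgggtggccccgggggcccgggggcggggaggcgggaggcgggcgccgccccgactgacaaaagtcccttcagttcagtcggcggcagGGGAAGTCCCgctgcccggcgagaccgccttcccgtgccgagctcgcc
In Nfkbia the match began 29 bases upstream of the start site, in Nfkb2 39, 38 and 11 bases upstream, the first 2 overlapping, in Tnfaip3 125 and 12 bases, and in Rel 92 and 91 bases, which overlap. In Bcl3 it lay just downstream of the start site. The other 2 Nfkb2 windows, which overlap each other, held 2 matches and 1 match, and that 1 match is a site present in both windows. The windows of Rela and Nfkbib and the second window of Tnfaip3 did not hold these letters. A match describes the sequence and is not a measured binding site.

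Counts over genes summed to between 60449016 and 95439578 per library, and 18108 to 18427 genes had a count. No label states that the libraries are from separate animals, so p-values measure only the scatter among these 6 libraries, which may be technical. How strand was handled is not stated in the sources, so a member and an antisense transcript over it cannot be told apart. Ezh2 itself was at 20.9 ± 0.68 CPM in WT and 19.9 ± 0.69 CPM in cKO (adjusted p = 0.507 by edgeR), a total over the whole gene in whole bone that does not check the labels. Osteoblast genes were abundant in both groups: Col1a1, the main collagen of bone, was at 81440 ± 15823 CPM in WT and 57138 ± 11869 CPM in cKO (mean ± SD, n = 3, adjusted p = 0.115). CPM is the count scaled to library size and then between libraries by TMM factors (a trimmed mean of log ratios). In whole bone, fewer cells of a type and less RNA per cell cannot be told apart.

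Of the 10 members, 5 were lower in cKO past the threshold (an adjusted p of 0.05 in edgeR's quasi-likelihood test over all genes), 0 were higher, and 5 did not pass. At an unadjusted p under 0.05 there were 8 lower and 0 higher, where 29.1% of all tested genes passed in either direction. DESeq2, which called 8.63% of all genes lower, and limma voom, which called 6.18% lower, each also called 5 members lower and 0 higher. Over all tested genes, by edgeR with adjustment, 6.45% were called lower and 5.96% higher. Counted without a test, 7 of the 10 had all 3 cKO libraries below all 3 WT libraries, which 17.4% of tested genes did. Since the members were chosen with earlier results known, setting them beside all genes is not an independent test. The calls fell on Nfkbiz, Tnfaip3 and Nfkbia among the inhibitors and on Nfkb2 and Rela among the subunits. Log2 fold changes are cKO relative to WT. Their median was -0.29 for the members and 0.01 for all tested genes. The count of members lower depended on the libraries: it was 2 without cKO 8 and 2 without cKO 10, Nfkbiz and Tnfaip3 in both cases. The share of all tested genes called lower dropped as well, from 6.45% to 1.81% without cKO 8 and to 4.54% without cKO 10. With upper-quartile scaling, which called 4.75% of all genes lower and turned the share of higher among all called genes from 48% to 60.9%, 4 members were lower.

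**Figure D1:**
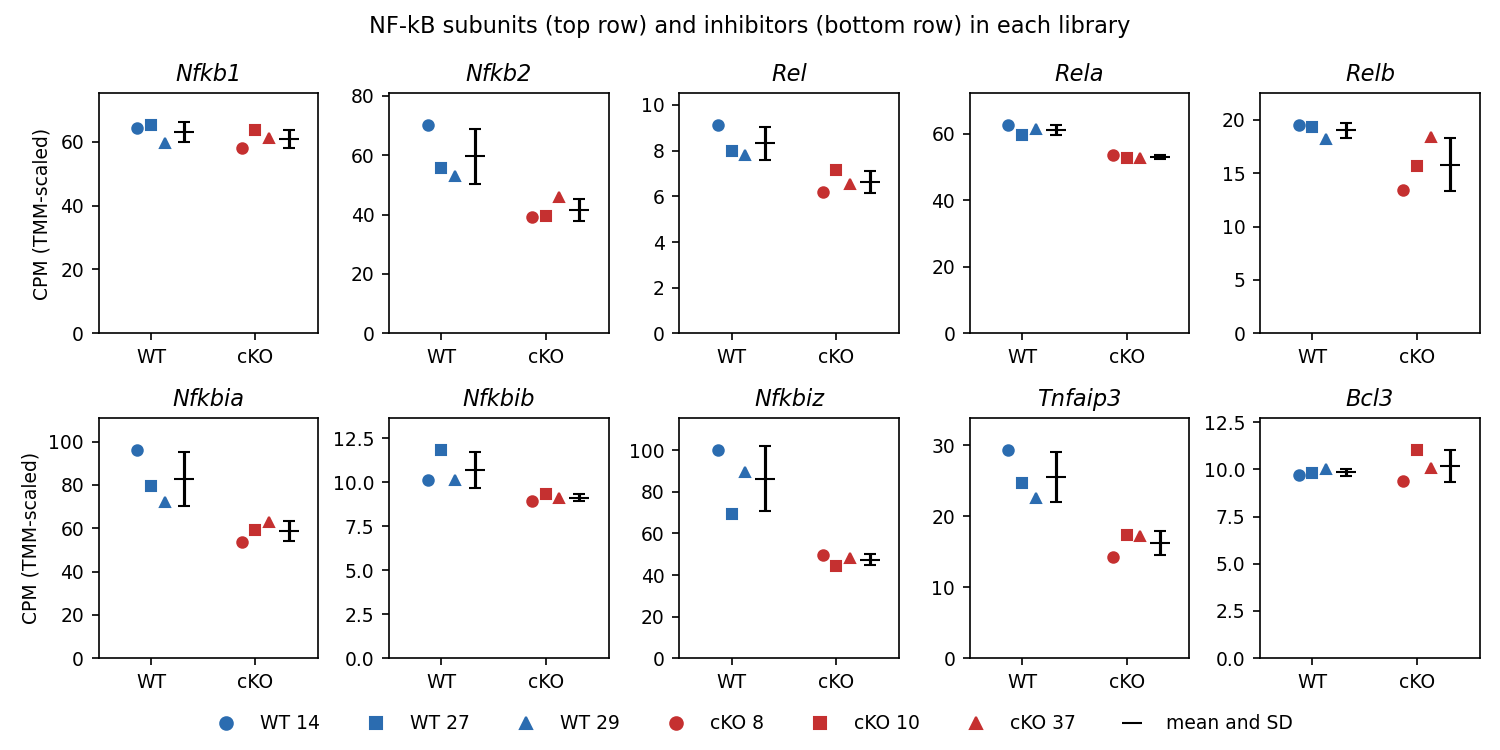
TMM-scaled CPM of each member (vertical axes, each starting at 0) in the 3 WT (blue) and 3 cKO (red) libraries, with the group mean and SD (black, n = 3). In 7 of the 10 genes every cKO point lies under every WT point, whereas Nfkb1, Relb and Bcl3 overlap.

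Gene positions are those in the authors' file (mm10). Among the inhibitors, the largest difference was in Nfkbiz (chromosome 16, 55811377 to 55838641), which encodes an inducible nuclear IkB protein that acts with NF-kB on chromatin and is needed for some secondary response genes. Nfkbiz was at 100.3, 69.3 and 89.4 CPM in WT 14, WT 27 and WT 29 and at 49.5, 44.3 and 48.4 CPM in cKO 8, cKO 10 and cKO 37. The cKO libraries lay close together and all under the lowest WT library, while the WT libraries were widely spread (86.3 ± 15.7 against 47.4 ± 2.74 CPM, mean ± SD, n = 3). Nfkbiz fell 1.82-fold (log2 -0.86 ± 0.13 SE, 95% confidence interval -1.16 to -0.57, adjusted p = 0.0075 by edgeR). Of all tested genes, 0.74% had a log2 fold change as low or lower. The call held under all 14 alternatives, with adjusted p from 7.68e-11 to 0.0409.

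Tnfaip3 (chromosome 10, 19000910 to 19015410) encodes a ubiquitin-editing enzyme that shuts off signalling upstream of the IkB kinases. Its level was 29.4, 24.7 and 22.6 CPM in WT 14, WT 27 and WT 29 and 14.2, 17.3 and 17.2 CPM in cKO 8, cKO 10 and cKO 37. All cKO libraries were lower than all WT libraries, with WT 14 highest and cKO 8 lowest. Tnfaip3 fell 1.57-fold (log2 -0.65 ± 0.11, 95% confidence interval -0.90 to -0.41, adjusted p = 0.00705), and this too passed under all 14 alternatives.

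Nfkbia (chromosome 12, 55489409 to 55492647) encodes IkB alpha, the classical cytoplasmic inhibitor and the fastest feedback gene. It was at 96.3, 79.3 and 72.0 CPM in WT 14, WT 27 and WT 29 and at 53.7, 59.2 and 62.9 CPM in cKO 8, cKO 10 and cKO 37. The groups did not overlap, but the gap between WT 29 and cKO 37 was smaller than the range within WT. Nfkbia fell 1.41-fold (log2 -0.49 ± 0.11, adjusted p = 0.0202), a call lost without cKO 8 (adjusted p = 0.0805) or cKO 10 (0.0541).

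Nfkbib (chromosome 7, 28758251 to 28766524) encodes IkB beta, a slower cytoplasmic inhibitor that is not known as a strong feedback gene. It was at 10.1, 11.9 and 10.1 CPM in WT 14, WT 27 and WT 29 and at 8.95, 9.32 and 9.10 CPM in cKO 8, cKO 10 and cKO 37. The groups did not overlap, but the difference did not pass (log2 -0.23 ± 0.10, 95% confidence interval -0.44 to -0.02, adjusted p = 0.145). Bcl3 (chromosome 7, 19808462 to 19822755), a nuclear IkB protein that binds dimers on DNA and can activate as well as repress, was at 9.70, 9.79 and 10.05 CPM in WT 14, WT 27 and WT 29 and at 9.38, 11.1 and 10.1 CPM in cKO 8, cKO 10 and cKO 37. The cKO libraries fell on both sides of WT, and the log2 fold change was 0.05 ± 0.09 (95% confidence interval -0.16 to 0.25, adjusted p = 0.785), which turned to -0.02 without cKO 10.

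Among the subunits, Nfkb2 and Rela passed and the other 3 did not. Nfkb2 (chromosome 19, 46304737 to 46312090) encodes the precursor that the non-canonical branch processes into a DNA-binding subunit. It was at 70.2, 55.6 and 52.9 CPM in WT 14, WT 27 and WT 29 and at 39.1, 39.5 and 45.8 CPM in cKO 8, cKO 10 and cKO 37. Every cKO library was below every WT library, and Nfkb2 fell 1.43-fold (log2 -0.52 ± 0.11, 95% confidence interval -0.78 to -0.27, adjusted p = 0.0213). That call was lost without cKO 8 (adjusted p = 0.088), without cKO 10 (0.0623) and when GC content and gene length were corrected for (0.103).

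Rela (chromosome 19, 5637490 to 5648130) encodes the main transactivating subunit. It was at 62.7, 59.7 and 61.3 CPM in WT 14, WT 27 and WT 29 and at 53.7, 52.6 and 52.7 CPM in cKO 8, cKO 10 and cKO 37, tight within each group. Rela fell 1.16-fold (log2 -0.21 ± 0.06, adjusted p = 0.0338). It was the least stable of the 5 calls. It was lost when any library but cKO 37 was left out (adjusted p = 0.055 to 0.101), under upper-quartile scaling (0.0547) and under the GC and length correction (0.211, log2 -0.11).

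Rel (chromosome 11, 23741729 to 23770970), the transactivating subunit best known from lymphocytes, was at 9.13, 7.99 and 7.83 CPM in WT 14, WT 27 and WT 29 and at 6.21, 7.16 and 6.55 CPM in cKO 8, cKO 10 and cKO 37. The libraries did not overlap, but Rel did not pass (log2 -0.32 ± 0.11, adjusted p = 0.0749) except under the GC and length correction (0.0481). Relb (chromosome 7, 19606222 to 19629438), the partner of the processed Nfkb2 product, was at 19.5, 19.3 and 18.2 CPM in WT 14, WT 27 and WT 29 and at 13.4, 15.6 and 18.4 CPM in cKO 8, cKO 10 and cKO 37. Only cKO 37 reached the WT range. The log2 fold change was -0.26 ± 0.11 (adjusted p = 0.124), and without cKO 37 it was -0.39 and passed (0.0213). Nfkb1 (chromosome 3, 135584655 to 135691547), whose product is processed into the DNA-binding partner of Rela, was at 64.2, 65.3 and 59.5 CPM in WT 14, WT 27 and WT 29 and at 57.9, 63.5 and 61.0 CPM in cKO 8, cKO 10 and cKO 37. The groups overlapped, and the log2 fold change was -0.05 ± 0.06 (95% confidence interval -0.19 to 0.09, adjusted p = 0.638).

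**Figure D2:**
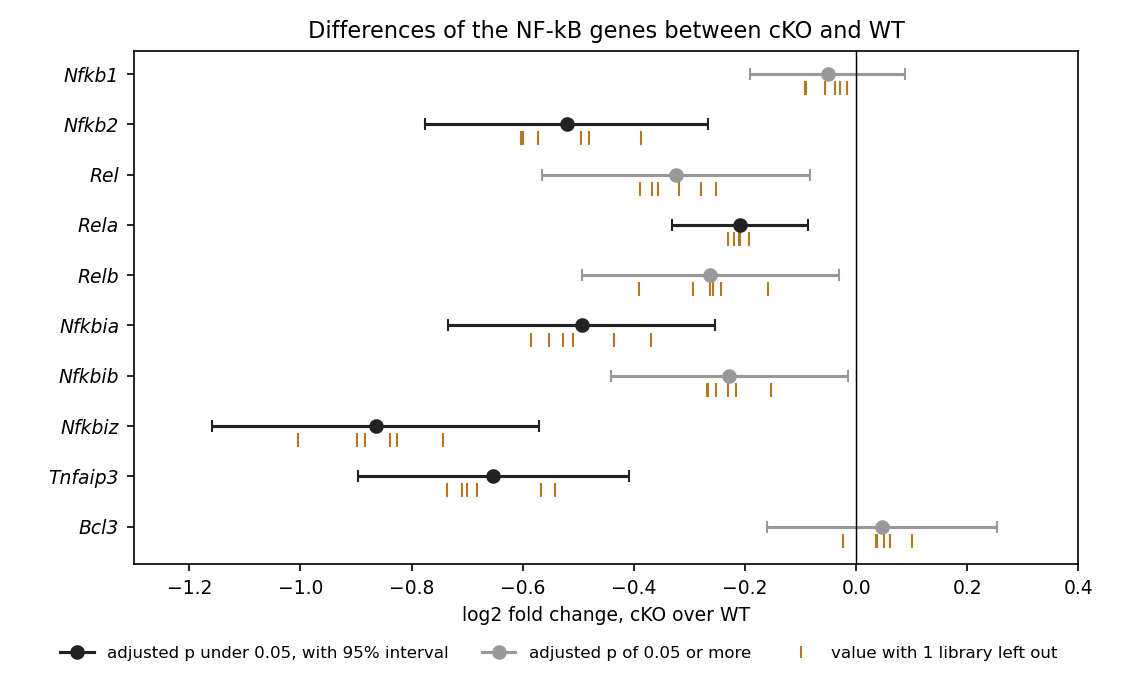
Log2 fold change of each member, cKO over WT, with its 95% confidence interval (circles and bars: black, past the threshold; grey, not) and the value after leaving out each of the 6 libraries in turn (ticks). Nfkbiz and Tnfaip3 stand farthest from 0, at -0.86 and -0.65, and Bcl3 is the only member whose sign depends on 1 library.

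Single libraries were often at the extremes. WT 14 was the highest library in 7 of the 10 genes, including all 5 that passed, and cKO 8 was the lowest in 8, including 3 of those 5. As the groups did not overlap in those 5, their highest library had to be WT and their lowest cKO. How often WT 14 and cKO 8 were at the extremes over all tested genes was not counted. The places of the others varied, and cKO 10 ran from the highest library for Bcl3 to the lowest for Rela and Nfkbiz. Nfkbia and Nfkb2 had the most similar profiles of any pair of members, differing by 0.05 (root mean square of gene-centred log2 CPM over 6 libraries), followed by Bcl3 and Nfkb1 at 0.08 and by Nfkbia and Tnfaip3 at 0.09. The most unlike were Bcl3 and Nfkbiz at 0.48. Outside the family, with 12480 candidate genes (mean log2 CPM 1 or above), the profiles nearest to Nfkbia were those of Igsf9b (0.07), Mtap1b (0.07) and Basp1 (0.08). Nearest to Tnfaip3 were Arc (0.06), the MAP kinase phosphatase gene Dusp5 (0.07) and Slc13a3 (0.08), and nearest to Nfkb1 were 9130401M01Rik, Cr1l and Fut8 (0.01, 0.01 and 0.02).

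Levels of different genes can be compared only per length, for which the authors' RPKM (reads per length of gene and library total) was used. Nfkbia was the most abundant member in both groups, at 38.8 ± 5.46 RPKM in WT and 27.8 ± 3.32 RPKM in cKO (mean ± SD, n = 3). Rela came next, at 16.8 ± 0.377 RPKM in WT and 14.6 ± 0.502 in cKO. In WT it was followed by Nfkbiz (16.5 ± 2.39), Nfkb2 (13.4 ± 1.87) and Nfkb1 (11.4 ± 0.931), and neighbours from Rela to Nfkb1 overlapped between libraries. In cKO Nfkbiz was in place 5, at 9.13 ± 0.385 RPKM, after Nfkb1 (11.1 ± 0.989) and Nfkb2 (9.44 ± 1.13), and its libraries overlapped with those of Nfkb2, as those of Nfkb2 did with Nfkb1. Relb was in place 6 in both groups, at 6.42 ± 0.41 and 5.39 ± 1.04 RPKM. Tnfaip3 was at 4.13 ± 0.524 RPKM in WT, where it overlapped with Nfkbib (4.10 ± 0.569), and at 2.65 ± 0.398 in cKO, where all its libraries were under those of Nfkbib (3.51 ± 0.223). Bcl3 was at 3.99 ± 0.172 and 4.16 ± 0.51 RPKM. Rel was the least abundant member, at 2.39 ± 0.175 RPKM in WT and 1.92 ± 0.215 in cKO, with no overlap with the gene above it.

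**Figure D3:**
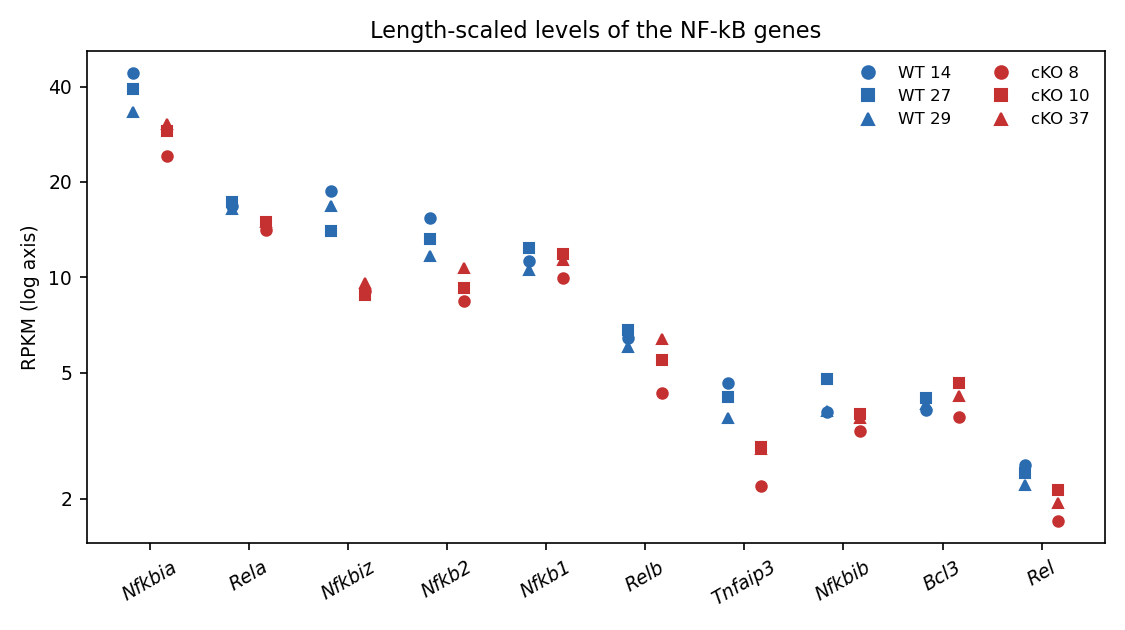
The authors' RPKM of each member (log axis) in the 3 WT (blue) and 3 cKO (red) libraries, ordered by the WT mean. Nfkbia is highest and Rel lowest in both groups, and Nfkbiz has the mean in place 3 in WT and place 5 in cKO, overlapping with Nfkb2 in both groups.

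The rest of the pathway was read from lists of its other genes. Of 116 tested genes, 15 rose, 11 fell and 90 did not pass, with a median log2 fold change of 0.01, against 12.4% called in either direction over all genes. In a list of other IkB and related genes, Nfkbid, which encodes a nuclear IkB protein, fell from 11.5 ± 0.611 to 7.79 ± 0.666 CPM (log2 -0.56 ± 0.10, adjusted p = 0.00713). The remaining 3, Nfkbie, Nfkbil1 and Ankrd42, did not pass.

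Of 11 genes of the IkB kinase complex, the kinases that activate it, adaptors of these and IkB-kinase-like enzymes, 5 rose and 1 fell, with a median of 0.14. Over all tested genes, 5.96% rose and 6.45% fell. Tab1, an adaptor of the kinase encoded by Map3k7, rose from 27.5 ± 0.978 to 35.5 ± 2.37 CPM (log2 0.37 ± 0.07, adjusted p = 0.0076), and passed under all 14 alternatives. Tbk1, an IkB-kinase-like enzyme, rose by 0.39 ± 0.08 (adjusted p = 0.0101) and Ikbkg, the regulatory subunit of the IkB kinase complex, by 0.28 ± 0.06 on the log2 scale (0.0123). The others that rose, named after their values were seen, were Ikbke (0.24 ± 0.07, adjusted p = 0.0418) and Map3k7 (0.23 ± 0.06, 0.0352). Map3k14, which encodes the NF-kB-inducing kinase that drives processing of the Nfkb2 product, fell by 0.30 ± 0.07 (adjusted p = 0.0152). The catalytic subunit genes, also named after their values were seen, Chuk (0.08 ± 0.07, adjusted p = 0.442) and Ikbkb (0.14 ± 0.06, adjusted p = 0.164) did not pass. Without cKO 8 only 1 of the list rose and none fell, and without any other single library 3 rose. The number of all genes that rose dropped as well, from 959 to 291 without cKO 8. Tbk1 and Ikbkg were lost without cKO 8 (adjusted p = 0.0534 and 0.0572), Map3k14 without WT 14 (0.0538) or cKO 8 (0.0572) or under the GC and length correction (0.0608). Ikbke and Map3k7 were lost whichever library was left out (0.0532 to 0.157), and Map3k7 also under that correction (0.0638).

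Of 18 receptors, 4 rose and 0 fell by edgeR, where 1 was lower at an unadjusted p under 0.05, as was 1 by DESeq2 after adjustment. Over all tested genes, edgeR with adjustment called 5.96% higher and 6.45% lower. The interleukin 1 receptor gene Il1r1 rose from 36.2 ± 3.97 to 50.2 ± 4.22 CPM (log2 0.47 ± 0.09, adjusted p = 0.00953, past the threshold under all 14 alternatives). The Toll-like receptor genes Tlr4 (0.50 ± 0.12, adjusted p = 0.0211) and Tlr3 (0.54 ± 0.14, 0.0308) and Cd40 (0.45 ± 0.13, 0.0468) also rose. Leaving out WT 14, WT 29 or cKO 8 lost Tlr4 (0.0618 to 0.0788), leaving out these or cKO 37 lost Tlr3 (0.0768 to 0.121) and under the GC and length correction (0.0873), and Cd40 was lost without any one library (0.0801 to 0.136) and without the low-count filter (0.0573). The count of receptors that rose was 1 without WT 14, WT 29 or cKO 8. Over all genes, 568, 398 and 291 rose in these cases, against 959 with all libraries. Tnfrsf11a, which encodes RANK and was named after its value was seen, was at 25.9 ± 3.78 and 19.9 ± 2.03 CPM and did not pass (log2 -0.38 ± 0.11, adjusted p = 0.0525).

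None of the 8 tested ligands passed with edgeR, and 3 had an unadjusted p under 0.05 (29.1% of all genes did). Of these 3, Tnf and Il1b had negative log2 fold changes, while Tnfsf13b (like Il1b named after its value was seen) had a positive one (0.79 ± 0.26, adjusted p = 0.072) without overlap between the groups. DESeq2 called 2 of them lower and limma voom none. Tnf was at 3.42, 2.03 and 3.00 CPM in WT 14, WT 27 and WT 29 and at 1.74, 1.29 and 1.95 CPM in cKO 8, cKO 10 and cKO 37, without overlap, and lay just outside the threshold (log2 -0.76 ± 0.23, adjusted p = 0.0501, and 0.015 to 0.155 over the alternatives). Of 23 adaptors and ubiquitin ligases, Ube2n, a ubiquitin-conjugating enzyme, fell by 0.21 ± 0.06 (adjusted p = 0.0379) and 22 did not pass. Of 17 other negative regulators, the deubiquitinase gene Otud7b rose by 0.21 ± 0.05 (adjusted p = 0.0315) and Zc3h12a, an RNase that degrades cytokine mRNA, fell by 0.32 ± 0.10 (0.04997). Zc3h12a was lost without any one library (adjusted p = 0.0734 to 0.156), and Ube2n (0.0545 to 0.133) and Otud7b (0.0752 to 0.101) were lost without any library but cKO 37. With upper-quartile scaling Ube2n and Zc3h12a were lost as well (0.0593 and 0.0665), as was Zc3h12a with limma voom (0.0512), without the low-count filter (0.0506) and under the GC and length correction (0.119).

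Known target genes split. Of 35 tested, 7 fell and 5 rose, with a median of -0.11, where 6.45% of all tested genes fell and 5.96% rose. The lower ones were Ier3, an early response survival gene (log2 -0.57 ± 0.10, adjusted p = 0.00754), the chemokine genes Ccl7 (-0.76 ± 0.15, 0.0103) and Ccl2 (-0.75 ± 0.17, 0.0285), Sod2, the mitochondrial superoxide dismutase (-0.31 ± 0.07, 0.0156), Gadd45b (-0.81 ± 0.18, 0.041), Nuak2 (-0.64 ± 0.18, 0.0416) and the cytokine gene Il6 (-1.16 ± 0.31, 0.0496). Cflar, an inhibitor of caspase 8 activation, rose from 55.2 ± 2.37 to 78.7 ± 3.36 CPM (log2 0.51 ± 0.06, adjusted p = 0.00157). The others that rose, named after their values were seen as were Ccl2, Gadd45b and Nuak2, were Ccl5 (0.86 ± 0.21, adjusted p = 0.0236), the metalloproteinase genes Mmp3 (0.91 ± 0.23, 0.0263) and Mmp13 (0.64 ± 0.17, 0.0423) and the adhesion gene Vcam1 (0.30 ± 0.08, 0.0316). Ier3, Ccl7 and Cflar passed under all 14 alternatives. Sod2 was lost without WT 29 (0.0536) or cKO 8 (0.078), and Ccl2, Gadd45b, Nuak2, Ccl5, Mmp3, Mmp13 and Vcam1 were each lost in 4 to 6 of the 6 omissions of a library. The number lower ranged from 2 (without WT 29) to 11 (without WT 27), being 3 without cKO 8 and 4 without WT 14, cKO 10 or cKO 37, and was 11 with DESeq2. Over all genes 1038 were lower with all libraries, 385 without WT 29, 611 without WT 27, 295 without cKO 8 and 1389 with DESeq2. The number of targets higher was 1 without cKO 10, 2 without any other library and 3 under the GC and length correction. Il6 was at 7.30, 3.41 and 6.22 CPM in WT 14, WT 27 and WT 29 and at 3.30, 2.03 and 2.26 CPM in cKO 8, cKO 10 and cKO 37, so that WT 27 lay near cKO 8, and its call was lost without any library but WT 27 (adjusted p = 0.0639 to 0.154). With all 6 libraries it was also lost under upper-quartile scaling (0.0531), without the low-count filter (0.0713) and by limma voom (0.0795). Likewise lost with all 6 libraries were Gadd45b (0.0779) and Mmp13 (0.0652) without the filter, and Mmp13 (0.0674) and Nuak2 (0.0543) by limma voom. The GC and length correction lost Gadd45b (0.0764), Nuak2 (0.0627), Mmp13 (0.0958) and Vcam1 (0.0874).

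**Figure D4:**
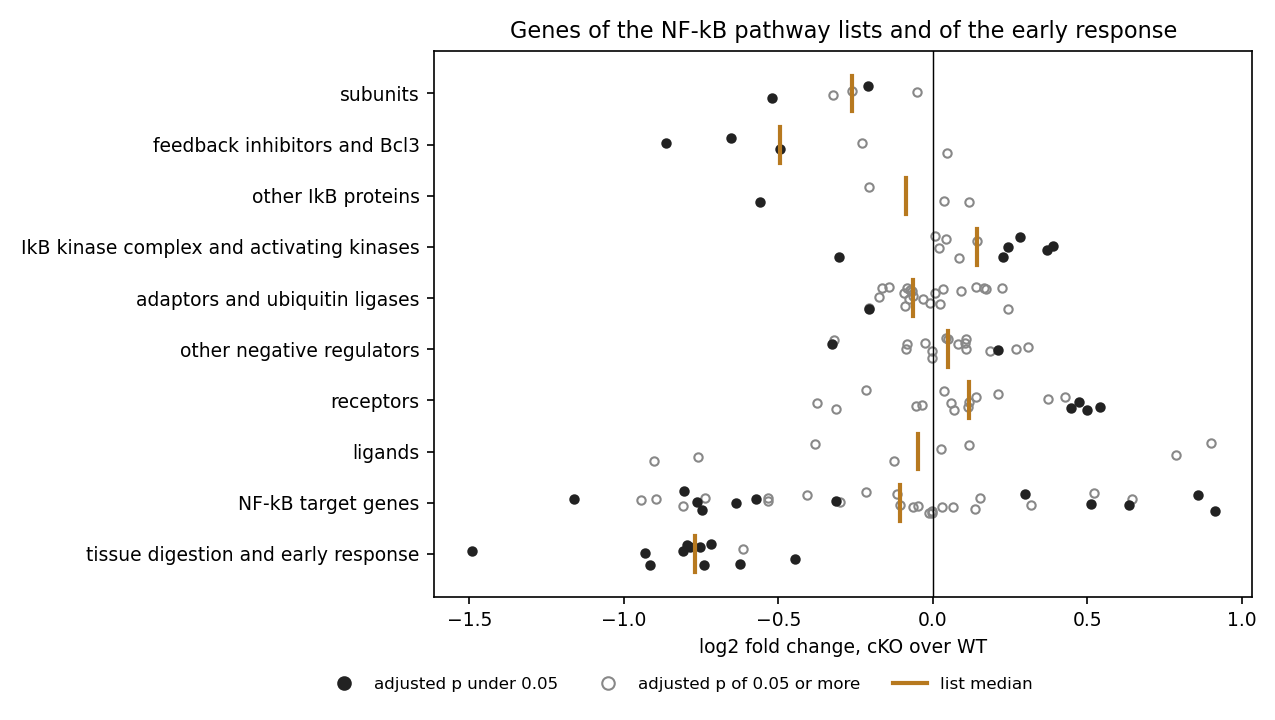
Log2 fold change, cKO over WT (horizontal axis), of each tested gene in the NF-kB lists and in a list of early response genes (rows). Filled points passed the threshold, open points did not, and the bar is the list median. The inhibitor row, with Bcl3, has its median at -0.49 and the kinase row at 0.14, and 11 of the 12 early response genes passed at negative values.

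Other transcripts differed as well, with mixed directions within several of the marker lists. The marker genes named here were picked after their values were seen. Of 12 genes known to rise quickly when tissue is digested or stressed, such as Fos, Junb, Egr1 and Hsph1, 11 fell and the list median was -0.77. Their summed level was 3858 to 4333 CPM in the WT libraries and 2051 to 2676 CPM in the cKO libraries, and the count that fell was 9 to 11 whichever library was left out. Of 9 tested macrophage markers, 2 fell, Csf1r (-0.43 ± 0.10, adjusted p = 0.0191) and Itgam (-0.28 ± 0.07, 0.0264), where 6.45% of all tested genes did. Negative values were seen in 6 of the 9, while Cd14 (0.11), Lyz2 (0.05) and C1qb (0.06) had positive ones. The summed level was 448 to 544 CPM in WT and 374 to 428 CPM in cKO. Csf1r alone was at 225 ± 33.8 CPM in WT and 167 ± 5.38 CPM in cKO (mean ± SD, n = 3). Of 8 osteoclast markers, 1 fell, Acp5 (-0.56 ± 0.12, adjusted p = 0.0172), all 8 had negative values, and the list median was -0.55. In 4 of the 8 all cKO libraries were below all WT libraries, which 17.4% of tested genes were. Of these, Dcstamp (-0.61 ± 0.16, adjusted p = 0.0505), Oscar (-0.65 ± 0.18, 0.0543) and Ocstamp (-0.65 ± 0.18, 0.063) did not pass. The osteoclast sums overlapped, at 2989 to 4274 CPM in WT and 2419 to 3056 CPM in cKO. Csf1r and Acp5 were lost without cKO 8 (adjusted p = 0.085 and 0.0743) or cKO 37 (0.0654 and 0.0544), and Itgam without WT 14, WT 27, cKO 8 or cKO 10 (0.0528 to 0.106). Of the osteoblast list, 1 of 10 fell (Sp7, -0.37 ± 0.09, adjusted p = 0.0211, lost without any library but WT 14 and WT 27, at 0.0518 to 0.0789), and of 7 endothelial markers 1 (Cldn5, -0.36 ± 0.08, adjusted p = 0.0132, lost without WT 29 or cKO 8, at 0.0548 and 0.0624). In the osteoblast list 6 of 10 had negative values. Sp7 and Col1a1 (-0.51 ± 0.20, adjusted p = 0.115) lay lower in cKO without overlap, and Ibsp higher without overlap (0.34 ± 0.12, adjusted p = 0.0745). In the endothelial list 3 of 7 had negative values, and Pecam1 was at 0.18 ± 0.07 (adjusted p = 0.117). No marker of the neutrophil, B cell, T and NK cell, erythroid or chondrocyte lists passed with edgeR (3 had an unadjusted p under 0.05: Ngp, Hba-a2 and Hbb-b1), and none of the markers was at 0 in all libraries. Neutrophil markers summed to 6.18 to 7.85 CPM in WT and 4.77 to 8.03 CPM in cKO, B cell markers to 1.75 to 1.98 and 0.903 to 1.66 CPM, T and NK cell markers to 5.14 to 6.46 and 5.48 to 6.38 CPM, erythroid markers to 5.11 to 10.3 and 5.51 to 9.54 CPM and chondrocyte markers to 2206 to 8266 and 780 to 6435 CPM. The part of any of these in the lower levels of Nfkbia, Nfkbiz, Tnfaip3, Nfkb2 and Rela was not tested.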

How the data were processed

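The submitters' processing notes name bcl2fastq, TopHat2 2.0.6, HTSeq and the build mm10. Neither the gene annotation nor the strand setting is given in the sources used here. Counts per gene, as the authors deposited them, were used. Of these counts 0 were odd, so they may not be plain tallies of single reads or fragments, and depth may be overstated. The cause was not tested, and halved counts were included among the alternatives. The RPKM values deposited by the authors, scaled by gene length and library total, served only to compare levels between genes.

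Genes were kept by filterByExpr (minimum count 10), scaled by TMM and tested for cKO against WT with the robust quasi-likelihood F test of edgeR 4.0.16 in R 4.3.3, with Benjamini-Hochberg adjustment over 16089 genes and a threshold of 0.05. Of the 23358 entries in the file, 69 share an identifier and were kept apart by position. The biological coefficient of variation was 11.5%. The steps were tested on simulated data with planted differences. The test required only that most of the largest be recovered and that false calls be few. Those largest differences exceeded that of any member, so the test does not cover differences of the members' size.

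The members and lists were chosen with earlier results of these data known. Named were all members, up to 4 genes with the smallest p among those that passed in each pathway list (where none passed, the 1 with the smallest p), Il6 and Tnf, and the 3 profiles nearest to Nfkbia, Tnfaip3 and Nfkb1. Any other gene was named after its values were seen. The marker lists cover osteoblast, macrophage, osteoclast, neutrophil, B cell, T and NK cell, erythroid, endothelial, chondrocyte and early response genes. Alternatives comprised RLE factors, upper-quartile factors, omission of the low-count filter, a minimum mean CPM of 1, DESeq2 1.42.0, limma voom (limma 3.58.1), halved counts and omission of each library. A correction for GC content and gene length (an offset in the fit) was added after seeing the data, with GC content for 90.1% of tested genes.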

Additional observations from a re-analysis of the deposited data

How the results depend on the processing

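No paired analysis was possible because the groups share no number in their labels. Over 14 alternatives the members gave 140 values, of which 125 kept their direction and their side of the threshold, 12 lost a call, 2 gained one and 1 changed sign. Nfkbiz and Tnfaip3 passed in all. Calls lost with all 6 libraries were Rela with upper-quartile scaling (log2 -0.18) and Nfkb2 (-0.42) and Rela (-0.11) under the GC and length correction, which also brought Rel past the threshold (-0.38) and moved the subunit median to -0.19. With 1 library left out, log2 values ran from -0.60 to -0.39 for Nfkb2, -0.23 to -0.19 for Rela, -0.39 to -0.16 for Relb, -0.58 to -0.37 for Nfkbia and -0.0238 to 0.101 for Bcl3, which was -0.0238 without cKO 10. The members called lower ran from 2 to 6, and all genes called higher from 291 to 932 (959 with all libraries) and lower from 295 to 1053 (1038). The cause of these changes was not tested.

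With 1 library left out, the kinases called ran from 0 to 1 lower and 1 to 3 higher, adaptors from 0 to 1 lower, other negative regulators 0 lower in each and 0 to 1 higher, receptors 0 to 1 lower and 1 to 3 higher, ligands 0 to 2 lower, and targets 2 to 11 lower and 1 to 2 higher. Medians ran from 0.0854 to 0.171 for kinases, -0.0688 to 0.0184 for adaptors, 0.0124 to 0.0738 for other negative regulators, 0.0287 to 0.19 for receptors, -0.154 to -0.0189 for ligands and -0.248 to -0.11 for targets. Upper-quartile scaling called 0 adaptors lower and 1 higher and 0 other negative regulators lower and 2 higher, with a kinase median of 0.17. Ligands called lower were 2 with DESeq2, 2 without the filter on low counts, 1 when counts were halved and 1 with RLE factors. Receptors called lower were 1 without that filter and 1 with DESeq2, and the target median without it was -0.26. DESeq2 called 11 targets lower. Other negative regulators called lower were 0 without the filter, 0 by limma voom and 0 under the GC and length correction. That correction called 0 kinases lower and 3 targets higher, with medians of -0.0324 for adaptors and 0.0154 for other negative regulators. Among 58 other named genes, 642 of 811 values were unchanged in call and 1 changed sign, Cr1l, to 0.00578 without cKO 8 (-0.0714 without cKO 10). Depth was lowest for Rel, with 372 counts in cKO 8.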

Other observations

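Ratios between members within a library, taken from the authors' RPKM, do not depend on how libraries are scaled. Nfkb2 stood at 1.37, 1.07 and 1.11 times the level of Nfkb1 in WT 14, WT 27 and WT 29 and at 0.845, 0.778 and 0.94 times that level in cKO 8, cKO 10 and cKO 37, so that the gene of the non-canonical precursor was the more abundant of the pair in every WT library and the less abundant in every cKO library. Tnfaip3 was 0.105, 0.107 and 0.108 times Nfkbia in the WT libraries and 0.091, 0.101 and 0.0939 times in the cKO libraries, also without overlap. Nfkbia over Rela overlapped between the groups, with ratios of 2.64, 2.28 and 2.01 among the WT libraries (14, 27, 29) against 1.71, 1.93 and 2.05 among the cKO libraries (8, 10, 37). Relb over Rela overlapped as well (0.382 ± 0.016 against 0.368 ± 0.0613, mean ± SD, n = 3), as did Nfkbiz over Nfkbia (0.429 ± 0.075 against 0.331 ± 0.0387). These ratios were not tested.

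Some inflammatory genes, chosen after their values were seen, did not pass although all cKO libraries were below all WT libraries, as in 17.4% of tested genes. Cxcl1 was at 14.1 ± 4.35 and 7.56 ± 1.28 CPM (mean ± SD, n = 3, edgeR adjusted p = 0.0615), Cxcl2 at 4.94 ± 1.23 and 2.58 ± 0.821 CPM (0.0541) and the transcription factor gene Irf1 at 79.2 ± 17.3 and 47.6 ± 6.77 CPM (0.0541) in WT and cKO. Il1b was at 1.28 ± 0.364 and 0.684 ± 0.054 CPM (adjusted p = 0.0505). In all 4, WT 27 was the lowest WT library. Without it each passed the threshold (adjusted p = 0.0147 for Cxcl1, 0.0431 for Cxcl2, 0.0101 for Irf1 and 0.0266 for Il1b). With all 6 libraries DESeq2 also called each of them (0.000103, 0.00186, 7.39e-06 and 0.0284), while none of the 4 passed without any other single library. Not all inflammatory genes were like these: Cxcl10 (log2 0.65, edgeR adjusted p = 0.357) and Cxcl5 (0.32, 0.663) had positive values, and Ptgs2 a negative one (-0.81, 0.198). The groups overlapped in each. Tnfsf11, the gene of the RANK ligand, likewise chosen after its values were seen, was at 17.4, 11.1 and 10.7 CPM in the WT libraries and 16.2, 17.7 and 38.8 CPM in the cKO libraries, which overlap (adjusted p = 0.294).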
